A study of Mus musculus with 39 samples.

Results

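Mymk and Mymx, the genes of the muscle fusogens myomaker and myomixer, were followed in differentiating C2C12 cells with and without filamin C. They were taken by name from the table of gene counts, and make up 2 of its 29980 genes. C2C12 is a mouse myoblast line that stops dividing and fuses into myotubes in low serum, and Flnc encodes filamin C, an actin-binding protein of muscle. The knockout cells (FlncKO, here KO) had been made with CRISPR/Cas9 and a guide against the first Flnc exon, and carry 1 line name in the labels. The wild-type cells (WT) were the line without that edit. KO cells were sampled with 4 libraries each on days 0, 1, 4 and 6 and 3 libraries on day 2, and WT cells with 4 libraries on each of these 5 days. Day 0 cells of both lines came from growth medium with 10% fetal bovine serum, and the later cells from medium with 2% horse serum. The labels do not say whether the KO line is 1 clone, so differences between the lines that arose outside Flnc cannot be told apart from those of the edit. They also do not say that replicates came from separate cultures, so p-values measure the spread between these libraries, which may be technical.

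Myomaker is a membrane protein with several passes through the membrane, needed on both fusing cells for the outer layers of their membranes to mix. Myomixer, also called myomerger or minion, is a microprotein that acts after it, when the fusion pore opens. In muscle precursors both genes are switched on as differentiation starts, and the E-box binding factors MyoD and myogenin are known activators of them. Mymk (ENSMUSG00000009214) lies on the minus strand of GRCm38 chromosome 2, from 27061636 to 27072179, with 1511 exonic bases in 6 exon blocks. Mymx (ENSMUSG00000079471) lies on the minus strand of chromosome 17, from 45600971 to 45602102, with 1027 exonic bases in 3 blocks. No other annotated gene overlaps either of them.

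Library totals ranged from 6838281 to 28902526 counts, and levels are given as CPM, read counts scaled to a common library total after TMM scaling. The lowest mean correlation of a library with the rest of its group was 0.888, for KO day 1 replicate 3, followed by 0.930 for WT day 0 replicate 4. The summed level of 8 muscle markers spanned 1656 to 9761 CPM in KO libraries and 1763 to 20210 CPM in WT libraries. Of 8 markers of leukocytes, endothelium, epithelium, adipocytes and glia, Epcam and Sox10 had no count in any library. The sum of all 8 stayed between 0.324 and 3.80 CPM in KO libraries and between 1.01 and 7.64 CPM in WT libraries. The 1 of them with enough counts to test, the leukocyte marker Cd68, was lower in KO cells on day 0 (1.36 CPM in KO, 6.30 CPM in WT, -2.21 log2, adjusted p = 0.00222, edgeR) and day 1 (-1.57, adjusted p = 0.0273). The other leukocyte marker, Ptprc, reached at most 0.238 CPM in KO and 0.186 CPM in WT libraries. Adipoq, an adipocyte marker, reached 2.72 CPM in KO and 0.241 CPM in WT libraries. Of the 8 muscle markers, 3, 5, 5, 4 and 2 were lower and 0, 1, 1, 1 and 1 higher in KO cells on days 0, 1, 2, 4 and 6. The shares of all genes on these days were 9.09%, 9.93%, 10.3%, 14.2% and 14.4% lower and 6.46%, 8.10%, 7.64%, 13.3% and 14.5% higher. The median differences of the 8 markers were -1.12, -1.70, -2.02, -1.06 and -0.77 log2. Their part in the differences of Mymk and Mymx was not tested. Flnc RNA, which checks the labels, averaged 29.3 ± 17.4 CPM in KO and 672 ± 239 CPM in WT cells on day 0, and 118 ± 21.9 CPM in KO and 1639 ± 266 CPM in WT cells on day 6 (SD, n = 4 each). KO levels of Flnc were 4.36% to 7.63% of WT levels over the 5 days, and no KO library overlapped the WT libraries of its day.

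Mymk RNA was lower in KO than in WT cells on every day sampled. On day 0, Mymk stood at 6.18, 6.70, 17.4 and 4.56 CPM in KO replicates 1, 3, 4 and 5, against 17.5, 14.3, 54.5 and 61.0 CPM in the WT replicates of the same numbers. KO replicate 4 lay within the WT range, and the other 3 KO libraries lay below all WT libraries. On day 1, Mymk stood at 24.3, 20.6, 7.46 and 11.0 CPM in KO cells, against 136, 73.3, 60.7 and 311 CPM in WT cells. On day 2, it stood at 142, 59.8 and 37.3 CPM in KO replicates 1, 3 and 5, against 872, 573, 584 and 709.8 CPM in WT cells. The groups did not overlap on either day, and both held 1 library well above the rest, WT replicate 5 on day 1 and KO replicate 1 on day 2. On day 4, Mymk stood at 315, 550.0, 334 and 389 CPM in KO cells, against 1558, 2228, 1789 and 1238 CPM in WT cells. On day 6, it stood at 486, 461, 251 and 484 CPM in KO cells, against 1874, 1535, 1768 and 1844 CPM in WT cells. On both late days every KO library lay below every WT library, and the highest KO library of all days, at 550.0 CPM, lay below the lowest WT library of day 2.

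**Figure D1:**
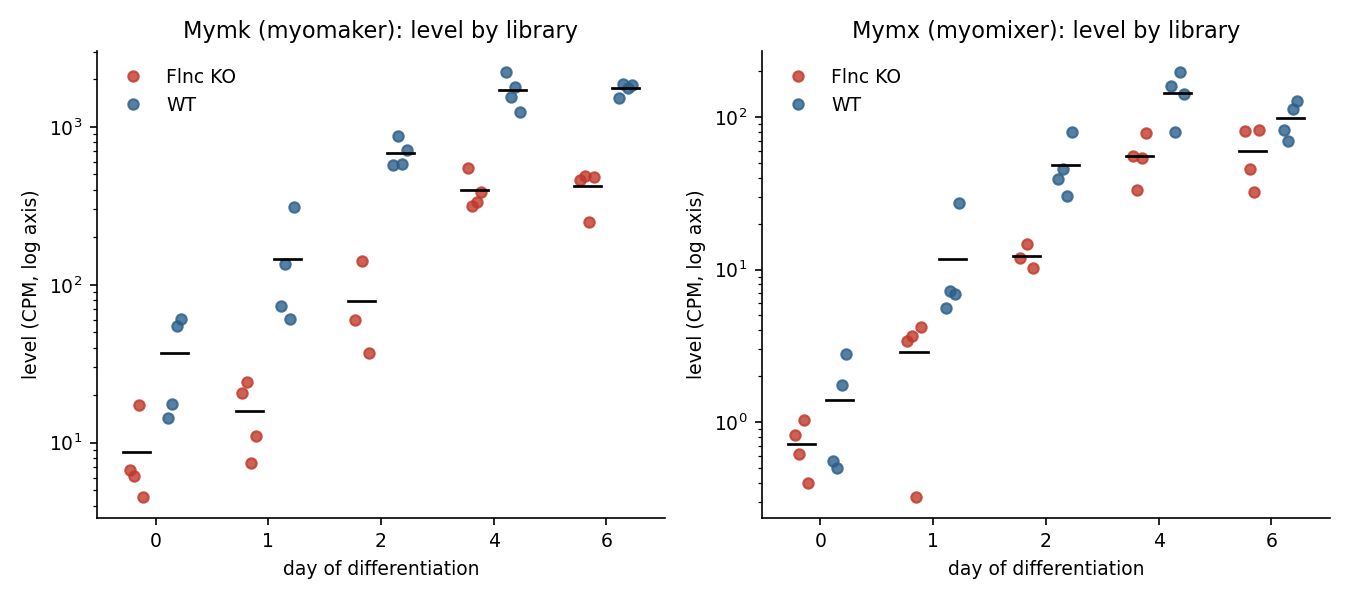
Level of Mymk (left) and Mymx (right) in each library, in CPM on a log axis, by day of differentiation, with KO libraries to the left of WT libraries and a black bar at the mean of each group. The KO and WT points of Mymk separate from day 1 to day 6, while those of Mymx separate on days 1, 2 and 4 and overlap on days 0 and 6.

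The mean level of Mymk in KO cells was 23.6%, 10.9%, 11.6%, 23.3% and 24.0% of that in WT cells on days 0, 1, 2, 4 and 6. The KO minus WT difference in log2 CPM was -2.08 ± 0.68 on day 0 (SE, adjusted p = 0.00292, edgeR quasi-likelihood test with Benjamini-Hochberg adjustment over 13780 genes). It was -3.20 ± 0.66 on day 1 (adjusted p = 1.83e-05) and -3.10 ± 0.58 on day 2 (adjusted p = 0.000144) by the same edgeR test. It was -2.10 ± 0.25 on day 4 (adjusted p = 0.00113) and -2.06 ± 0.24 on day 6 (adjusted p = 0.00131). Mymk thus passed the threshold of adjusted p under 0.05 on 5 of 5 days. Of all tested genes, 15.5%, 18.0%, 17.9%, 27.5% and 28.9% passed it in either direction on these days. Without WT day 0 replicate 4 the day 0 difference was -1.83 (adjusted p = 0.00993), and without KO day 1 replicate 3 the day 1 difference was -3.34 (adjusted p = 8.45e-05). The call held in all fits that left out 1 library, where the difference lay between -2.66 and -1.74 on day 0 and between -2.16 and -1.88 on day 6. In bulk RNA, fewer cells that express a gene and less RNA of it in each cell cannot be told apart.

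Mymx RNA was lower in KO cells on days 1, 2 and 4, and its difference on days 0 and 6 did not pass the test. On day 0, Mymx stood at 0.618, 0.824, 1.02 and 0.396 CPM in KO replicates 1, 3, 4 and 5, against 0.502, 0.556, 1.75 and 2.80 CPM in WT cells. These levels rest on 10 to 24 counts in KO libraries and 14 to 78 counts in WT libraries, and the groups overlapped. On day 1, Mymx stood at 3.69, 3.38, 0.324 and 4.19 CPM in KO cells, against 7.19, 5.59, 6.89 and 27.4 CPM in WT cells. On day 2, it stood at 14.7, 11.8 and 10.2 CPM in KO replicates 1, 3 and 5, against 45.6, 39.0, 30.3 and 79.5 CPM in WT cells. The groups did not overlap on these days, with KO replicate 4 (6 counts) low on day 1 and WT replicate 5 high on day 1. On day 4, Mymx stood at 33.2, 55.4, 53.9 and 78.2 CPM in KO cells, against 79.5, 159, 198 and 142 CPM in WT cells. On day 6, it stood at 45.8, 80.6, 32.4 and 82.4 CPM in KO cells, against 69.6, 82.6, 113 and 128 CPM in WT cells. On day 4 the highest KO library lay just below the lowest WT library, and on day 6 KO replicates 3 and 5 lay within the WT range.

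The mean level of Mymx in KO cells was 51.1%, 24.6%, 25.2%, 38.1% and 61.2% of that in WT cells on days 0, 1, 2, 4 and 6. Its KO minus WT difference in log2 CPM was -2.02 ± 0.95 on day 1 (adjusted p = 0.00615, edgeR), -1.98 ± 0.33 on day 2 (adjusted p = 0.0118) and -1.39 ± 0.38 on day 4 (adjusted p = 0.0332). On day 0 the difference was -0.97 ± 0.61 (adjusted p = 0.283, edgeR), and on day 6 it was -0.71 ± 0.39 (adjusted p = 0.303). The day 1 difference was -1.20 (adjusted p = 0.116, edgeR) without WT day 1 replicate 5 and -2.08 (adjusted p = 0.014) without KO day 1 replicate 3. The day 2 call was lost without KO day 2 replicate 3 (-1.96, adjusted p = 0.0516, edgeR) or replicate 5 (-1.88, adjusted p = 0.0648). The day 4 call was lost in 6 of the 8 fits that left out 1 library, with differences of -1.63 to -1.20 over all 8.

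As a check that uses the libraries of 1 day only, log2 CPM was compared by exact two-sided permutation, for 2 genes on 5 days. Mymk gave p = 0.0286 on days 1, 4 and 6, the smallest p that 4 against 4 libraries allow, and p = 0.0571 on days 0 and 2 in the same exact permutation test, where 4 against 3 libraries on day 2 allow no smaller value. Mymx gave exact permutation p = 0.0286 on days 1 and 4, 0.0571 on day 2, 0.114 on day 6 and 0.371 on day 0. The lowest value after Benjamini-Hochberg adjustment over these 10 exact permutation tests was 0.0571, so none passed 0.05.

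Both fusogens were higher from day 2 on than on day 0 in both lines. In KO cells, mean Mymk was 1.82, 9.13, 45.6 and 48.3 times its own day 0 level on days 1, 2, 4 and 6, and in WT cells it was 3.94, 18.6, 46.2 and 47.6 times. In KO cells, mean Mymx was 4.05, 17.1, 77.1 and 84.2 times its day 0 level on these days, and in WT cells it was 8.41, 34.7, 103 and 70.3 times. By day 6 the factor of Mymk was close to the same in the 2 lines, at a lower level in KO cells.

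The first rise was called for Mymx in KO cells and for both genes in WT cells. The day 1 minus day 0 difference of Mymk was 0.86 ± 0.57 log2 in KO cells (adjusted p = 0.278, edgeR) and 1.98 ± 0.76 in WT cells (adjusted p = 0.0143). That of Mymx was 2.02 ± 0.83 in KO cells (adjusted p = 0.0294) and 3.08 ± 0.76 in WT cells (adjusted p = 0.00145). Of all genes, 7.98% in KO and 4.19% in WT cells were called between these days. The Mymk rise in WT cells was 1.27 (adjusted p = 0.207, edgeR) without WT day 1 replicate 5 and 1.69 (adjusted p = 0.0854) without WT day 0 replicate 3. The Mymx rise in KO cells lost its call in 4 of 8 fits that left out 1 library (1.77 to 2.40 over all 8). From day 2 on, both genes were above day 0 in both lines, with log2 differences of 3.19 to 6.40 in KO cells and 4.22 to 6.69 in WT cells and adjusted p at or below 3.80e-05 (edgeR). On days 2, 4 and 6, 26.6%, 37.6% and 43.6% of all genes differed from day 0 in KO cells, and 25.6%, 43.7% and 49.4% in WT cells.

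Between neighbouring days, Mymk rose in KO cells by 2.33 ± 0.69 log2 at day 2 against day 1 (adjusted p = 0.0121, edgeR) and by 2.32 ± 0.59 at day 4 against day 2 (adjusted p = 0.0279). Of all genes, 1.94% and 1.10% were called at these KO steps. In WT cells Mymk rose by 2.24 ± 0.55 log2 at day 2 against day 1 (adjusted p = 0.0106, edgeR), and its day 4 minus day 2 difference was 1.31 ± 0.23 (adjusted p = 0.0680). Of all genes, 3.43% and 10.8% were called at these WT steps. Mymx rose in KO cells by 2.08 ± 0.81 and 2.17 ± 0.29 log2 at the same steps (adjusted p = 0.0407 and 0.0499, edgeR), and in WT cells by 2.04 ± 0.60 and 1.57 ± 0.41 (adjusted p = 0.0214 and 0.0364). These steps rest on few libraries: the KO step of Mymk at day 4 lost its call in 4 of 7 fits without 1 library, and that of Mymx in 6 of 7. The Mymx step at day 2 lost its call in 5 of 7 such fits in KO cells and 4 of 8 in WT cells, and its WT step at day 4 in 6 of 8. The Mymk step at day 2 lost it in 2 of 7 in KO cells and 1 of 8 in WT cells. At day 6 against day 4 the differences were 0.08 ± 0.29 for Mymk and 0.13 ± 0.41 for Mymx in KO cells, and 0.04 ± 0.19 for Mymk and -0.55 ± 0.35 for Mymx in WT cells, with adjusted p = 1 for each in edgeR. No gene was called by edgeR or DESeq2 at this step in either line, where 325 genes in KO cells and 426 in WT cells had an unadjusted p under 0.05 in edgeR.

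Whether the KO minus WT difference itself changed after serum withdrawal was tested as genotype by day. For Mymk the change from the day 0 difference was -1.12 ± 0.95, -1.02 ± 0.89, -0.02 ± 0.73 and 0.02 ± 0.72 log2 on days 1, 2, 4 and 6, with adjusted p between 0.659 and 1 (edgeR). For Mymx it was -1.05 ± 1.13, -1.02 ± 0.69, -0.42 ± 0.72 and 0.26 ± 0.72 log2, with adjusted p between 0.697 and 1 (edgeR). None of these 8 changes passed the test. On days 1, 2, 4 and 6, 0%, 0.544%, 7.66% and 9.95% of all genes were called for such a change. On day 1 edgeR called 0 genes, DESeq2 called 1, and 341 had an unadjusted p under 0.05 in edgeR.

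Ranked by mean level over the 10 groups, Mymk was highest in WT cells of days 6 and 4, whose ranges overlapped. Next came WT day 2, then KO days 6 and 4, then WT day 1, KO day 2, WT day 0, KO day 1 and KO day 0. The ranges did not overlap between WT days 4 and 2, between WT day 2 and KO day 6, and between KO day 4 and WT day 1, and each of the other neighbours in the order overlapped. For Mymx the order was WT day 4, WT day 6, KO day 6, KO day 4, WT day 2, KO day 2, WT day 1, KO day 1, WT day 0 and KO day 0. Its neighbours were separate only between WT day 2 and KO day 2 and between WT day 1 and KO day 1. The ranges of Mymx in KO cells of days 4 and 6 overlapped that of WT day 2, whereas those of Mymk lay below it.

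Because gene lengths differ, the 2 fusogens were set against each other per kb of exon. On day 6, Mymk averaged 278 ± 75.2 CPM per kb in KO cells and 1162 ± 102 in WT cells, and Mymx averaged 58.7 ± 24.4 CPM per kb in KO cells and 95.9 ± 26.3 in WT cells (SD, n = 4 each). Mymk was thus the more abundant RNA of the pair in both lines. The ratio of Mymx to Mymk within each library, in which library size cancels, was 0.0882 to 0.186 in KO cells and 0.0436 to 0.0678 in WT cells on day 0, with no overlap. On day 6 it was 0.139 to 0.257 in KO cells and 0.0547 to 0.102 in WT cells, again with no overlap. The day 0 ratios rest on only 10 to 24 counts of Mymx in KO libraries and 14 to 78 in WT libraries.

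The KO minus WT difference in the log2 ratio of Mymx to Mymk was 1.33 ± 0.27 on day 0, 0.87 ± 0.66 on day 1, 1.40 ± 0.49 on day 2, 0.72 ± 0.37 on day 4 and 1.34 ± 0.29 on day 6. Exact two-sided permutation gave p = 0.0286 on days 0 and 6, and adjusted p = 0.107 over the 15 ratio tests, so no single day passed after adjustment. Averaged over the 5 days, a summary chosen after the daily values were seen, the ratio was higher in KO cells by 1.13 log2 (2.19-fold), in the same direction on 5 of 5 days. A two-sided permutation that exchanged labels within days gave p = 2e-05 from 100000 resamples, and adjusted p = 6e-05 over 3 such ratios. That permutation takes no account of libraries of the same replicate number deviating together. Without each library in turn the average lay between 1.04 and 1.24 log2.

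**Figure D2:**
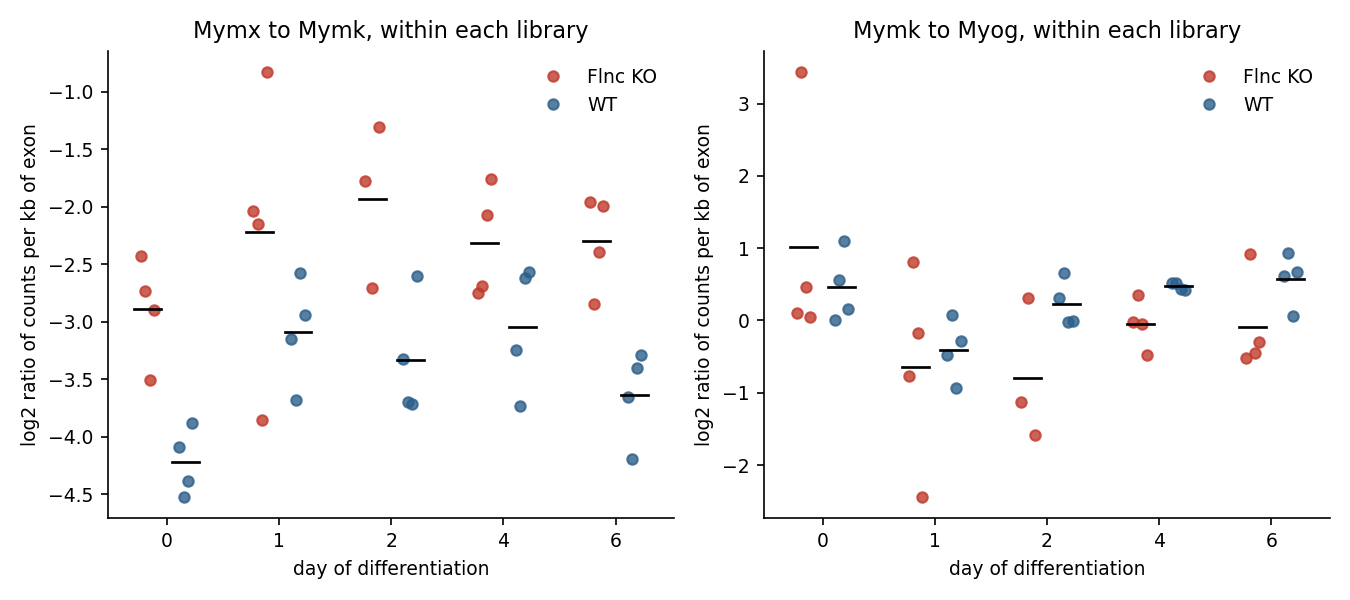
Log2 ratio of counts per kb of exon within each library, by day, for Mymx to Mymk (left) and Mymk to Myog (right), with KO libraries to the left of WT libraries and a black bar at the mean of each group. The Mymx to Mymk ratio is higher in KO libraries on average on each of the 5 days and separates the groups on days 0 and 6, and the Mymk to Myog ratio separates them on day 4.

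Among the known activators, Myog, the myogenin gene, was lower in KO cells beside the fusogens, and Myod1, the MyoD gene, was higher. Myog averaged 5.91 ± 5.01, 29.0 ± 23.0, 118 ± 10.1, 417 ± 150.2 and 459.5 ± 193 CPM in KO cells on days 0, 1, 2, 4 and 6. The levels of the same days were 26.3 ± 19.4, 179 ± 130, 575 ± 103, 1209 ± 274 and 1196 ± 328 CPM in WT cells (SD, n = 4, or 3 in KO cells of day 2). Its KO minus WT difference was -2.16 ± 1.04, -2.63 ± 0.77, -2.29 ± 0.15 and -1.53 ± 0.33 log2 on days 0, 1, 2 and 4 (adjusted p = 0.00886, 0.00127, 0.00997 and 0.0366, edgeR). On day 6 it was -1.38 ± 0.37 (adjusted p = 0.0588, edgeR), with all 4 KO libraries below all WT libraries. The calls of Myog were lost on day 0 without WT day 0 replicate 5 (-1.54, adjusted p = 0.0851), on day 2 without KO day 2 replicate 5 (-2.26, adjusted p = 0.0508) and on day 4 in 4 of 8 fits that left out 1 library (-1.70 to -1.37 over all 8).

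Myod1 averaged 171 ± 34.6 CPM in KO and 173 ± 55.7 CPM in WT cells on day 0, and 222 ± 18.8 CPM in KO and 113 ± 17.1 CPM in WT cells on day 6 (SD, n = 4 each). From day 1 to day 6 every KO library lay above every WT library of its day, and the differences of 0.88 ± 0.16, 1.02 ± 0.30, 1.04 ± 0.18 and 0.98 ± 0.13 log2 were each called (adjusted p = 0.000413 to 0.0037, edgeR). The difference on day 0 was -0.02 ± 0.26 (adjusted p = 0.972, edgeR), with a sign that turned when single libraries were left out.

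The log2 ratio of Mymk to Myog per kb was lower in KO than in WT cells by 0.38 on average over the 5 days, with KO higher on 1 of them, and did not pass the permutation within days (p = 0.158). On day 4, where the groups did not overlap, it was -0.05 ± 0.34 in KO and 0.47 ± 0.05 in WT cells (SD, n = 4 each, exact permutation p = 0.0286, adjusted p = 0.107). The ratio of Mymx to Myog was higher in KO cells by 0.75 log2 (1.68-fold) on average, on 5 of 5 days. Permutation within days gave p = 0.00048 for it, and adjusted p = 0.00072 over the 3 ratios averaged this way. The averages of both ratios to Myog were also chosen after the daily values were seen. Their permutation takes no account of libraries of the same replicate number deviating together. By day the difference in Mymx to Myog was 1.88, 0.63, 0.37, 0.21 and 0.68 log2, and no single day passed (lowest adjusted p = 0.107, exact permutation). On day 0 this log2 ratio was 0.71 in KO replicate 1, with 16 counts of Myog, and -2.33, -3.05 and -2.85 in KO replicates 3, 4 and 5. How far the average rests on that library was not tested.

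**Figure D3:**
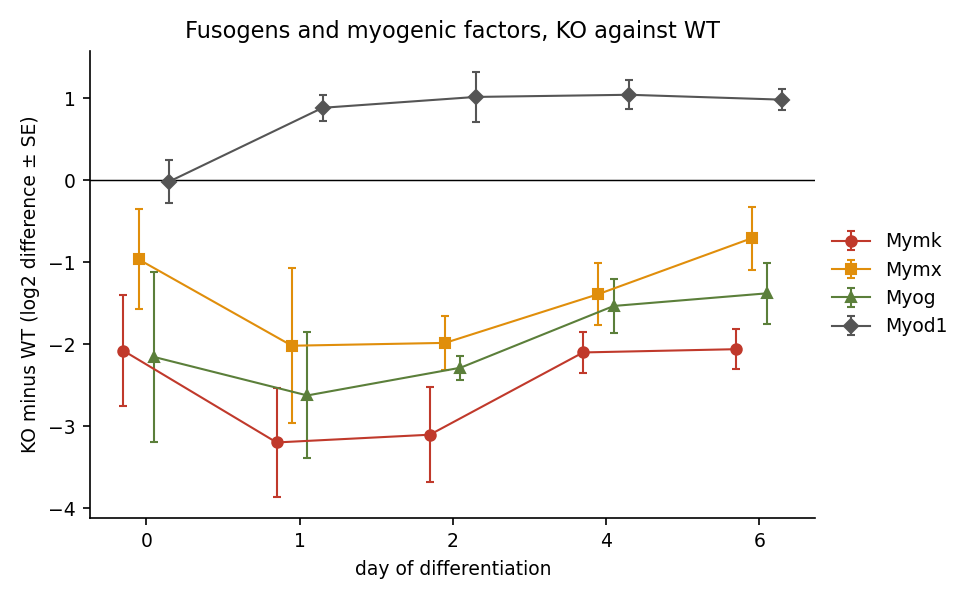
KO minus WT difference in log2 CPM, with its SE as the bar, for Mymk, Mymx, Myog and Myod1 on days 0, 1, 2, 4 and 6. Mymk lies lowest on days 1, 2, 4 and 6, Mymx lies above Mymk and Myog on every day, and Myod1 is near 0 on day 0 and about 1 log2 above 0 later.

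Regulators of the myogenic programme moved in both directions. Of 19 tested transcriptional regulators, Myog and Myod1 included, 4, 4, 5, 5 and 2 were lower and 2, 5, 7, 8 and 10 higher in KO cells on days 0, 1, 2, 4 and 6. Of all genes, 9.09%, 9.93%, 10.3%, 14.2% and 14.4% were lower and 6.46%, 8.10%, 7.64%, 13.3% and 14.5% higher on these days. The 2 regulators lower on day 6 are no more than that share of all genes. Their median differences were -0.18, -0.23, 0.20, 0.58 and 0.92 log2, while the median over all tested genes lay between -0.04 and 0.02. Mef2c, which encodes a partner of the MyoD family on muscle promoters, had 6.94, 22.3, 5.98 and 19.0 CPM in KO replicates 1, 3, 4 and 5 on day 6, against 679, 707, 499.6 and 564 CPM in WT cells. Its KO minus WT difference was -1.44 ± 0.51 on day 0 and -5.50 ± 0.50 on day 6 (adjusted p = 0.0352 and 3.04e-09, edgeR), and the groups did not overlap from day 1 on. The day 0 calls of Mef2c and Heyl were each lost in 4 of 8 fits that left out 1 library. Mef2d was lower on all 5 days, with a difference of -1.24 ± 0.17 on day 6 (adjusted p = 0.000213).

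The Id genes, whose proteins bind the E-protein partners of MyoD and myogenin and keep them off DNA, were higher in KO cells. Id3 had 277, 339, 448 and 425 CPM in KO replicates 1, 3, 4 and 5 on day 6, against 3.27, 1.18, 7.10 and 0.965 CPM in WT cells, a difference of 6.84 ± 0.66 log2 (adjusted p = 4.15e-10, edgeR). Id3 was called on all 5 days, from 1.40 ± 0.34 on day 0 (adjusted p = 0.0431, a call lost in at least 1 fit that left out 1 library), and Id1 and Id2 from day 1, with 3.18 ± 0.33 and 3.75 ± 0.33 on day 6. Heyl, a Notch-responsive repressor gene, was higher on all 5 days, at 55.6 CPM in KO and 5.93 CPM in WT cells on day 6 (3.25 ± 0.64, adjusted p = 0.000141). The E-protein gene Tcf12 was higher from day 2, at 379 CPM in KO and 147 CPM in WT cells on day 6 (1.36 ± 0.11, adjusted p = 2.97e-05).

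Genes listed for adhesion and the cell surface in fusion, not all of them for recognition between myoblasts, were more often called lower than higher in KO cells. Of 18 tested members of a list of 20, 6, 6, 7, 10 and 9 were lower and 0, 0, 1, 3 and 3 higher on days 0, 1, 2, 4 and 6. On these days, 9.09%, 9.93%, 10.3%, 14.2% and 14.4% of all genes were lower and 6.46%, 8.10%, 7.64%, 13.3% and 14.5% higher. The median difference of the list was -0.58, -0.44, -0.53, -0.76 and -0.74 log2. Adgrb1 and Adgrb3 had too few counts to be tested. Itga7, the integrin chain of a muscle laminin receptor, had 565, 515, 393 and 519 CPM in KO replicates 1, 3, 4 and 5 on day 6, against 1574.5, 1730, 1489 and 1906 CPM in WT cells. Its groups overlapped on no day, with differences of -1.41 to -1.79 log2 (adjusted p = 0.000346 or less, edgeR).

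Cdh2, N-cadherin, was lower from day 2, at 53.1 CPM in KO and 246 CPM in WT cells on day 6 (-2.21 ± 0.19, adjusted p = 2.85e-06, edgeR). Ncam1, a neural cell adhesion molecule also carried by myotubes, was lower from day 2 (-1.84 ± 0.21 on day 6, adjusted p = 8.46e-06), and Cav3, the muscle caveolin, on all 5 days, at 16.9 CPM in KO and 122 CPM in WT cells on day 6 (-2.84 ± 0.59, adjusted p = 0.000949). The groups of Cav3 overlapped on days 0 and 1, and its day 1 call was lost without WT day 1 replicate 5 (-2.32, adjusted p = 0.164, edgeR). Jam2 was called lower only on day 0 (-1.69 ± 0.38, adjusted p = 0.00118), with differences of -0.47 to -0.92 on the other days. Tspan33, a tetraspanin gene on chromosome 6 as Flnc is, was lower from day 1 (-3.35 ± 0.87 on day 6, adjusted p = 0.000412). Vcam1, an immunoglobulin-type adhesion molecule, was lower in KO cells on day 0 (-1.53 ± 0.44, adjusted p = 0.000887) and higher on day 6, at 138 CPM in KO and 14.0 CPM in WT cells (3.31 ± 0.15, adjusted p = 6.5e-09).

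Single genes of the actin remodelling that precedes fusion were lower or higher in KO cells. Of 20 tested, 5, 4, 3, 3 and 3 were lower and 0, 0, 2, 4 and 5 higher on days 0, 1, 2, 4 and 6, with medians of -0.40, -0.44, -0.17, 0.07 and 0.09 log2. Of all genes, 9.09%, 9.93%, 10.3%, 14.2% and 14.4% were lower and 6.46%, 8.10%, 7.64%, 13.3% and 14.5% higher on these days. The 3 genes lower on day 6 are thus near the background. Rac1, the small GTPase upstream of branched actin, was lower from day 1 to day 6 by -0.46 to -0.50 log2 (adjusted p = 0.0165 to 0.0491, edgeR). Trio, an exchange factor for Rac1, was lower on day 6, at 129 CPM in KO and 346 CPM in WT cells (-1.42 ± 0.22, adjusted p = 0.00245), whereas Dock5, another Rac exchange factor, was higher, at 97.8 CPM in KO and 26.0 CPM in WT cells (1.91 ± 0.19, adjusted p = 3.82e-06). Rnd3, a GTPase that lowers actomyosin contraction, was also higher on day 4 (1.21 ± 0.46, adjusted p = 0.00349), with groups that overlapped.

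A list for the membrane and phosphatidylserine in fusion, which also held Pld1 and Cflar, had 10 tested genes. Of these, 4, 2, 1, 1 and 1 were lower and 0, 0, 0, 1 and 1 higher on days 0, 1, 2, 4 and 6. The medians were -0.50, -0.17, -0.19, 0.00 and 0.03 log2. The 4 lower on day 0 were Ano5, Pld1, Cflar and Piezo1, and the groups of all but Ano5 overlapped. Of all genes, 9.09%, 9.93% and 10.3% were lower and 6.46%, 8.10% and 7.64% higher on days 0, 1 and 2. On days 4 and 6 the counts of the list are at or below the shares of all genes, of which 14.2% and 14.4% were lower and 13.3% and 14.5% higher. Ano5, a TMEM16 family membrane protein gene linked to muscular dystrophy in people, was lower on all 5 days. On day 6, Ano5 had 12.2, 2.72, 1.20 and 2.13 CPM in KO replicates 1, 3, 4 and 5, against 64.7, 39.6, 20.2 and 53.3 CPM in WT cells (-3.34 ± 0.78, adjusted p = 0.00468, edgeR). The groups of Ano5 did not overlap on any day, and replicate 1 was the highest library in both lines. Anxa5, a phosphatidylserine-binding annexin, was higher on day 6, at 233 CPM in KO and 158 CPM in WT cells (0.56 ± 0.19, adjusted p = 0.0156), and lost that call in 4 of 8 fits that left out 1 library.

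TGF-beta signalling, which restrains fusion of mouse myoblasts, and other brakes on fusion were covered by 10 genes, of which Mstn had too few counts. Of the 9 tested, 0, 0, 0, 1 and 1 were lower and 2, 3, 2, 3 and 3 higher on days 0, 1, 2, 4 and 6, with medians of 0.19, 0.18, 0.08, 0.49 and 0.44 log2. Of all genes, 6.46%, 8.10%, 7.64%, 13.3% and 14.5% were higher on these days, and 14.2% and 14.4% were lower on days 4 and 6. Tgfbr1, the type I TGF-beta receptor gene, was higher from day 1, at 349 CPM in KO and 87.1 CPM in WT cells on day 6 (2.00 ± 0.17, adjusted p = 3.47e-05, edgeR). The ligand genes differed in direction on day 6, with Tgfb1 higher (1.02 ± 0.20, adjusted p = 0.00425) and Tgfb3 lower (-1.30 ± 0.14, adjusted p = 0.000274).

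**Figure D4:**
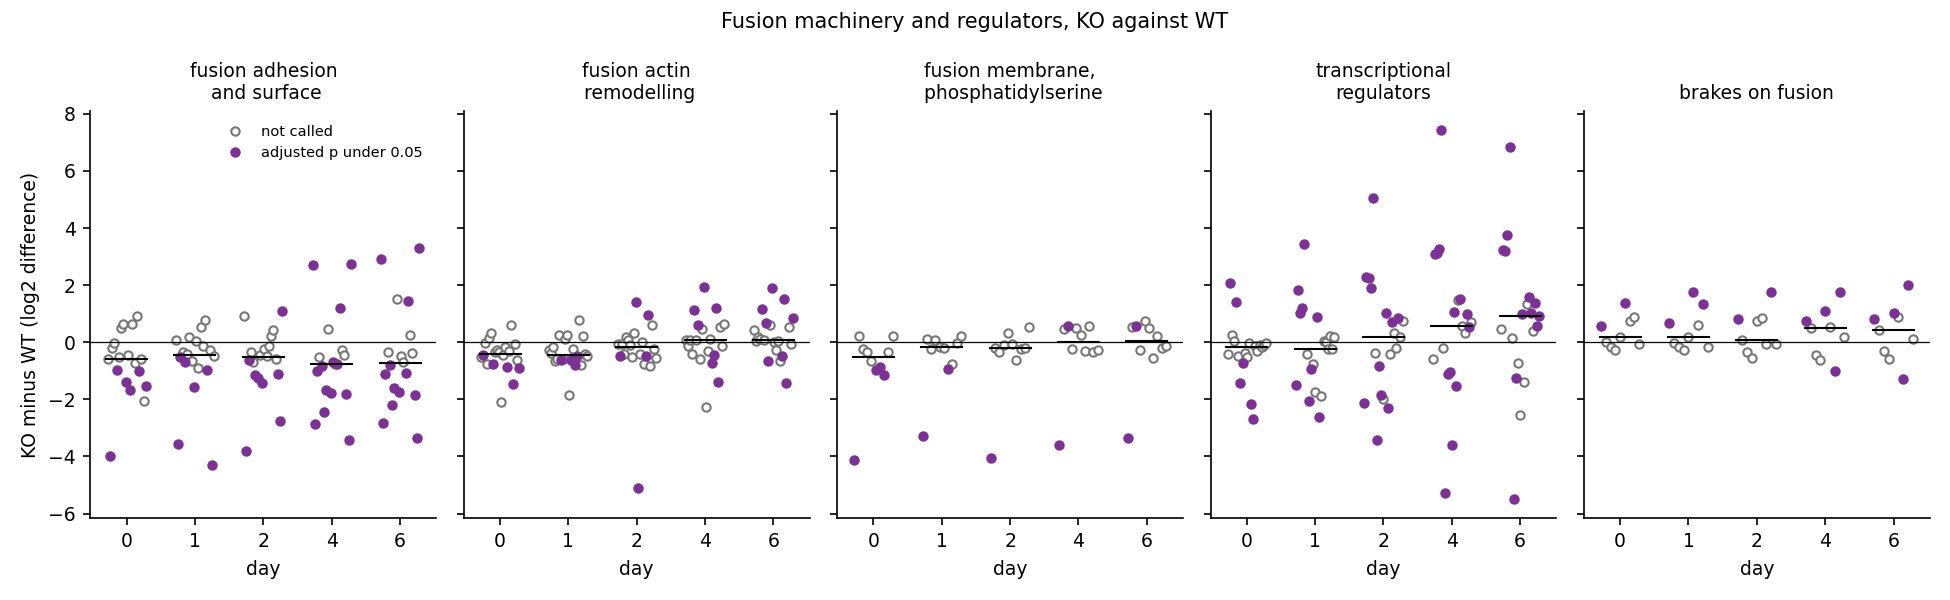
KO minus WT difference in log2 CPM of each tested gene of the 5 lists, by day, with filled points for adjusted p under 0.05, open points for the other genes and a black bar at the median of the list. The median of the adhesion and surface list lies below 0 on all 5 days, and that of the transcriptional regulators is 0.92 on day 6.

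Mef2d, Tcf12 and the day 6 values of Heyl, Cav3, Tspan33 and Rac1 were named after their values were seen. The 5 genes whose course over the 10 groups was most like that of each fusogen are named here. Likeness was the root mean square difference between log2 CPM means, centred per gene, among 11037 genes. For Mymk the closest were Mylpf, a fast myosin light chain gene, at 0.30 log2, the muscle kinase gene Srpk3 at 0.36, Hfe2 (hemojuvelin) at 0.41, the M-band gene Myom3 at 0.42 and the glycogen phosphorylase gene Pygm at 0.45. For Mymx the closest were Unc45b, a myosin chaperone gene, at 0.42, the muscle creatine kinase gene Ckm at 0.43, the cytochrome oxidase subunit gene Cox8b at 0.45, Hfe2 at 0.46 and Hrc, a calcium-binding protein gene of the sarcoplasmic reticulum, at 0.47. Mymx was the 31st closest gene to Mymk, Mymk was the 24th closest to Mymx, both at 0.67, and Myog was the 19th closest to Mymk and the 8th to Mymx. Over the 39 libraries in place of the group means, 2 of the 5 genes named for each fusogen stayed among its 5 closest.

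**Figure D5:**
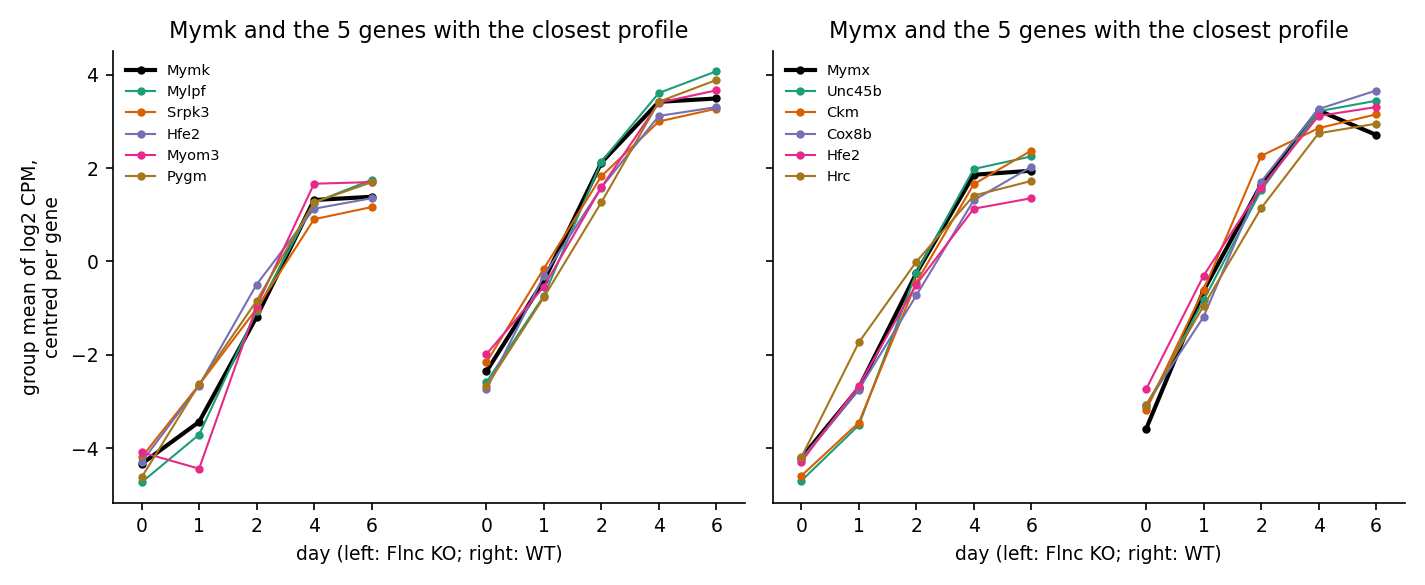
Group means of log2 CPM, centred per gene, for Mymk and its 5 closest genes (left) and Mymx and its 5 closest genes (right), with the 5 days of KO cells left of the 5 days of WT cells in each panel. All curves are higher on day 4 than on day 0 in both lines and end lower in KO cells, and Mymx alone among the plotted genes is lower in WT cells of day 6 than of day 4.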

How the data were processed

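RNA was sequenced from 39 libraries of C2C12 cells. The authors deposited raw read counts per gene, and per the labels' protocols the libraries were stranded mRNA libraries read at 51 bp. FastQC 0.11.9, STAR 2.7.9, featureCounts 2.0.3 and DESeq2 are named in the submitters' processing notes, and the annotation and strand setting of the counting are not given in the sources used here. Of all nonzero counts, 64.4% were even numbers (64.1% of those of Mymk and 66.7% of those of Mymx), the reason for which was not tested. If reads were counted in pairs, the counts printed here would stand for fewer fragments, so a fit with all counts halved was among the alternatives. All 29980 gene IDs matched GENCODE M21 (GRCm38), the source of positions and exon lengths, and 1 column that matches no sample was not used.

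Genes were tested with edgeR 4.0.16 in R 4.3.3 (limma 3.58.1): TMM scaling, filterByExpr (13780 genes left, 10001 had no count), 1 mean for each of 10 groups, robust quasi-likelihood F-tests and Benjamini-Hochberg adjustment over all tested genes at 0.05. SEs come from the spread of log2 CPM in each group. Ratios used counts per kb with 0.5 added and exact permutation. The named genes were Mymk, Mymx, Flnc, Myod1 and Myog, up to 4 called members of each list with the smallest p in each KO against WT comparison, and the 5 genes most alike in profile among those reaching 5 CPM in a group. The members and lists were chosen with earlier results of these data known. The edgeR steps were tested on simulated data. Alternatives were counts halved, DESeq2 1.42.0, its size factors, no filter, a 1.5-fold threshold test, fits per day, a replicate block and leaving out each library.

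In the KO against WT comparisons of days 0, 1, 2 and 4, every correlation of same-numbered deviations exceeded 0.1 (0.141 to 0.409 on day 0 and 0.36 to 0.687 on day 1). On day 6 they ran from -0.0685 to 0.323. Libraries of different numbers were not compared in this way, so whether the numbers pair samples was not tested. The main edgeR fit and the exact permutations of single days take no account of such pairing, and the replicate block was an alternative. The labels do not say what a number marks. Results of some list members are not reported here.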

Additional observations from a re-analysis of the deposited data

Results flagged for a closer look

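Of 72 groups of 4 libraries examined, 6 held a library far from the other 3, where chance gives about 1 in 20. Mymk stood at 17.4 CPM in KO day 0 replicate 4, above the other 3 KO libraries, and at 251 CPM in KO day 6 replicate 4, below the other 3. Mymx stood at 27.4 CPM and Myog at 373 CPM in WT day 1 replicate 5, both far above the other WT libraries of that day. The log2 ratio of Mymk to Myog per kb was 3.44 in KO day 0 replicate 1, where Myog had 0.549 CPM, and 0.92 in KO day 6 replicate 1.

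The KO minus WT difference of Myod1 was larger on later days than on day 0, by 1.06 log2 on day 4 (adjusted p = 0.0272, edgeR) and by 1.00 on day 6 (adjusted p = 0.0322).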

How the results depend on the processing

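Mymk was called lower in KO cells on all 5 days under each of 8 alternatives and without each library, with differences over the alternatives of -2.08 to -1.95 on day 0 and -2.13 to -2.06 on day 6. Without a filter on low counts, more genes were tested and Mymx missed the threshold in KO against WT on day 4 (-1.40), KO day 1 against day 0 (2.03), KO day 2 against day 1 (2.10), KO day 4 against day 2 (2.18) and WT day 4 against day 2 (1.62), and the lists held 2 higher genes on day 0 in place of 4. Against a 1.5-fold change the same comparisons kept their estimates and were not called for Mymx (-1.39, 2.02, 2.08, 2.17 and 1.57), nor were Mymx in WT day 2 against day 1 (2.04) and Mymk in WT day 1 against day 0 (1.98), KO day 4 against day 2 (2.32) and WT day 2 against day 1 (2.24). That test called 620, 744, 794, 1105 and 1127 genes lower and 324, 443, 505, 913 and 989 higher in KO cells on days 0, 1, 2, 4 and 6. In the 5 lists it called 8, 7, 9 and 12 genes lower on days 0, 1, 2 and 4, and 1, 4, 6 and 13 higher on days 0, 1, 2 and 6.

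Fitted on the libraries of the day alone, Mymx on day 1 was not called (-1.98, adjusted p = 0.127, edgeR). That fit called 577 genes higher on day 0, 753 lower and 619 higher on day 1, and 12 and 5 list genes lower on days 0 and 1. With the replicate block in the fit of the day, 1748 genes were higher on day 2, Mymx on day 6 was called (-0.79, adjusted p = 0.0260), and Myod1 on day 0 reversed to 0.0223. On day 6 the correlations of same-numbered deviations ran from -0.0685 to 0.323. Compared with the main fit, the block changed no other KO against WT call of Mymk or Mymx. Within the fit of the day, Mymx on day 1 was called with the block (-1.96, adjusted p = 0.0327, edgeR) and not without it. DESeq2 called Mymk in WT day 4 against day 2 (1.36, adjusted p = 0.0320). The genotype by day change of Mymk on day 6, 0.02 in the report, reversed to -0.0400 with DESeq2, -0.0408 with its size factors, -0.00986 without the filter and -0.0175 with the replicate block over all libraries. Where no reason is given, the cause was not tested.

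Leaving out each library in turn gave these lowest and highest values where a call or sign changed. For Mymk they were 1.62 and 2.68 for KO day 2 against day 1, 1.96 and 3.02 for KO day 4 against day 2, -0.00958 and 0.27 for KO day 6 against day 4, 1.27 and 2.30 for WT day 1 against day 0, 1.98 and 2.93 for WT day 2 against day 1, and -0.0822 and 0.21 for WT day 6 against day 4. The genotype by day changes of Mymk spanned -0.38 to 0.56 on day 4 and -0.35 to 0.60 on day 6, and that of Mymx -0.37 to 0.53 on day 6. For Mymx the KO minus WT difference spanned -2.27 to -1.20 on day 1, -2.16 to -1.64 on day 2 and -1.63 to -1.20 on day 4. Its day differences spanned 1.77 to 2.40 for KO day 1 against day 0, 1.70 to 2.33 for KO day 2 against day 1, 1.94 to 2.35 for KO day 4 against day 2, -0.0634 to 0.35 for KO day 6 against day 4, 1.70 to 2.88 for WT day 2 against day 1 and 1.39 to 1.92 for WT day 4 against day 2. Myod1 on day 0 spanned -0.14 to 0.22, the ratio of Mymk to Myog -0.25 to 0.87 on day 0 and -0.73 to 0.35 on day 1, and that of Mymx to Myog -0.00940 to 0.35 on day 4. Genes called higher spanned 476 to 1294 on day 0, 714 to 1300 on day 1 and 637 to 949 on day 2, and genes called lower 871 to 1323 on day 2. List genes called lower spanned 11 to 20 on day 0 and 8 to 16 on day 2, and those called higher 0 to 4 on day 0 and 7 to 11 on day 2. With all counts halved, each KO against WT call of Mymk and Mymx was the same. On day 0 the lowest library of Mymx holds 10 counts, and its WT libraries spanned 0.502 to 2.80 CPM. Whether depth or this spread limits the comparison was not tested.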

Other observations

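Genes next to the fusogens differed between the lines in their own ways. Slc29a1, a nucleoside transporter gene that lies 1365 bases from Mymx on the same strand, was higher in KO cells on days 0, 4 and 6. On day 6 it averaged 973 CPM in KO and 332 CPM in WT cells, a difference of 1.55 log2 (adjusted p = 6.97e-05, edgeR), and on day 1 its difference was 0.42 (adjusted p = 0.321). Hsp90ab1 and Capn11, on the same chromosome, were not called on any day, and Tmem63b was lower on days 0 and 1 (-0.87 and -0.71, adjusted p = 0.0012 and 0.00656).

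Beside Mymk on chromosome 2, Adamtsl2 and Slc2a6 were lower in KO cells on some days after day 0. Adamtsl2, which lies 7200 bases away, averaged 0.820 CPM in KO and 36.7 CPM in WT cells on day 6 (-5.52 log2, adjusted p = 9.04e-08, edgeR), and differed by 1.49 (adjusted p = 0.148) on day 0. Slc2a6, a sugar transporter family gene, averaged 2.03 CPM in KO and 41.8 CPM in WT cells on day 2 (-4.34 log2, adjusted p = 2.55e-05). Its groups were already apart on day 1, at 1.54 to 4.74 CPM in KO and 5.46 to 22.2 CPM in WT cells. Cacfd1 was not called on any day, and Fam163b had too few counts to be tested. Of the relatives of myomaker, Tmem8 was higher in KO cells on day 4, at 6.11 CPM in KO and 3.68 CPM in WT cells (0.73 log2, adjusted p = 0.0169), and Tmem8b was not called on any day.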
